A study of Homo sapiens with 3 samples.

Results

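The genes of the G1 phase control circuit were followed in HEK293 cells, an adherent human line of embryonic kidney origin, before and after partial knockout of KANK1. The members were chosen by name: the D-type cyclins CCND1, CCND2 and CCND3, the E-type cyclins CCNE1 and CCNE2, the kinases CDK2, CDK4 and CDK6, the transcription factor E2F1 and the pocket protein RB1. All 10 were found among the 26209 gene symbols of the deposited tables. Polyadenylated RNA was sequenced from 3 libraries. The control library came from HEK293 cells with no treatment. The other 2 came from HEK293 clones 114 and 174, both of genotype partial KANK1-KO, made by transfecting a plasmid for Cas9 and a guide that targets the coding sequence right behind its first ATG. KANK1 encodes a scaffold protein of the cell cortex, and the series title asks whether a reduced KANK1 dose bears on centrosome defects. Each clone descends from selected cells, the control is 1 library of a population not stated to be cloned, and whether the clones' RNA came from separate cultures beyond their numbers is not given. Differences between clones and control therefore cannot be told apart from differences between a clone and its parent population.

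In G1, growth signals induce D-type cyclins, which bind CDK4 or CDK6, and these kinases phosphorylate the retinoblastoma protein encoded by RB1. Phosphorylated RB releases E2F factors, which switch on CCNE1, CCNE2, E2F1 itself and the genes of DNA replication, and cyclin E with CDK2 then completes RB phosphorylation. The same oscillator is coupled to centrosomes, since CDK2 activity is needed for centriole duplication. HEK293 cells carry the adenoviral E1A gene, whose protein binds RB and frees E2F. E1A itself was not analysed here, and protein and phosphorylation were not measured.

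Levels were deposited as FPKM, fragment numbers scaled by transcript length and library size, so levels of different genes can be set side by side within a library. From the FPKM that 1 fragment adds to long transcripts, the depth was estimated at 16300000 fragments in the control library, 16800000 in clone 114 and 17000000 in clone 174. The estimate took the median of values between 0.045 and 0.075 FPKM times kilobases, over 87, 72 and 85 genes. This fixed window bounds the result, so the 3 depths could not differ widely. Fragment numbers and counting errors below are approximate and rest on it. Summed FPKM were 0.873 of the control in clone 114 and 0.929 in clone 174. Scaling the libraries to the same sum moved the median log2 change of all tested genes by 0.13. KANK1, the edited gene, was at 4.49 FPKM in control cells, 3.63 in clone 114 and 3.43 in clone 174, a log2 change of -0.28 (SE 0.40, limma adjusted p = 1.00). The guide site lies within the transcript, so this level does not test the edit. Of 8 neuronal and kidney developmental markers of HEK293 cells, 6 were at or above 1 FPKM in all 3 libraries and NEFM was below 1 FPKM in all 3. The proliferation markers MKI67, TOP2A and PCNA summed to 509 FPKM in control cells, 520 in clone 114 and 495 in clone 174. The 10 markers of blood, endothelium, fibroblasts, liver and mature kidney tubule reached at most 0.255 FPKM, and 4 of them were listed at 0 in every library.

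The members spanned a wide range of levels. CDK4 was the most abundant in every library, at 156 FPKM in control cells, 140 in clone 114 and 174 in clone 174. E2F1 and CDK2 came next in the control, at 58.7 and 55.9 FPKM. In both clones CDK2 was second, and E2F1 was just below RB1 in clone 114 (38.3 and 39.2 FPKM) and just below CCND3 in clone 174 (35.1 and 37.3 FPKM). RB1, CCND3, CCNE1 and CCNE2 formed a middle group between 17.9 and 39.2 FPKM. Within it, RB1 and CCND3 overlapped over the 3 libraries, and so did CCNE1 and CCNE2, whereas CCND3 stayed above CCNE1. CCND1, CDK6 and CCND2 were lowest, at 12.6 FPKM or less in each library, with CCND1 above CDK6 in the control and below it in both clones. CDK6 exceeded CCND2 within each library, although their ranges over libraries overlapped.

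**Figure D1:**
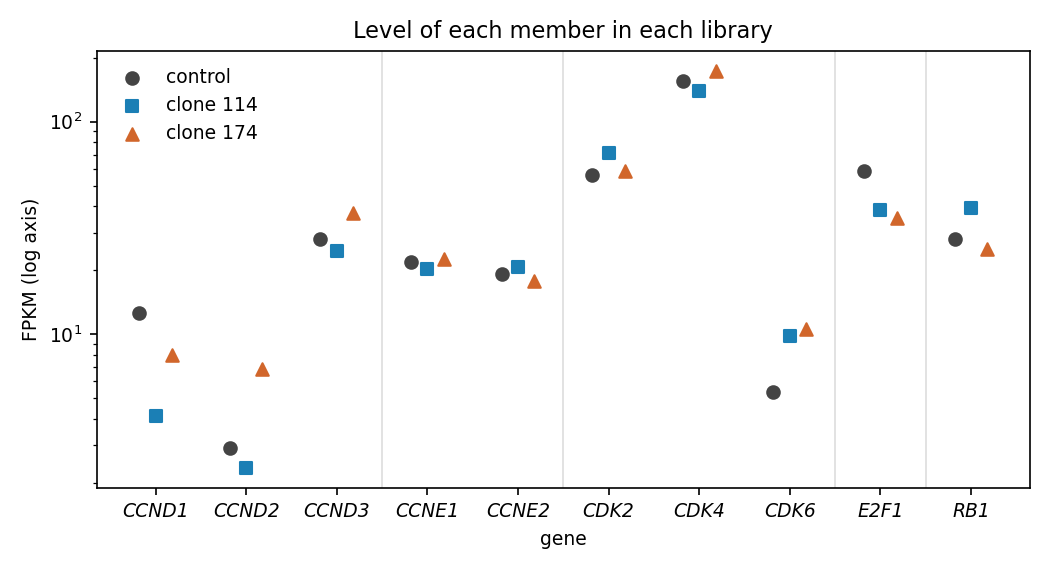
FPKM (log axis) of each member in the control (circles), clone 114 (squares) and clone 174 (triangles), 1 point per library, with vertical lines between the D cyclins, E cyclins, kinases, E2F1 and RB1. CDK4 lies highest at 140 to 174 FPKM, both clones lie below the control for CCND1 and E2F1, and both lie above it for CDK6.

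The 2 clones were compared with the control by a fit that took each gene's spread mostly from that over all tested genes. A member that is not called can therefore still have clones that differ little from each other. With limma on log2(FPKM + 1), all 10 members passed the level filter and 0 were called at an adjusted p under 0.05, against 0.0795% of the 12577 genes tested. At an unadjusted limma p under 0.05 there were 2 members, CCND1 and CDK6, against 1.73% of all tested genes. The members were chosen with earlier results of these data known. Their counts beside the shares of all tested genes are therefore a description and no test of the set. On the level of single directions, 2 members were higher in both clones, 2 were lower in both and 6 moved in opposite directions. Among all tested genes 26.1% were above the control in both clones and 31.8% below it. A further measure asked that both clones lie on the same side of the control and that their mean change exceed the difference between them. CDK6 met it upward and CCND1 and E2F1 downward, against 15.6% and 20.7% of all tested genes. For CCND1 the mean was carried by clone 114, and the change in clone 174 alone (-0.59) was smaller than the difference between the clones (0.82). The median log2 change of the members was 0.056, against -0.020 for all tested genes. The fit has 1 residual degree of freedom, and the clones share 1 control, so an unusual control value would move both clones alike. In bulk RNA, a different share of cells in one cell cycle phase and a different level per cell cannot be told apart.

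**Figure D2:**
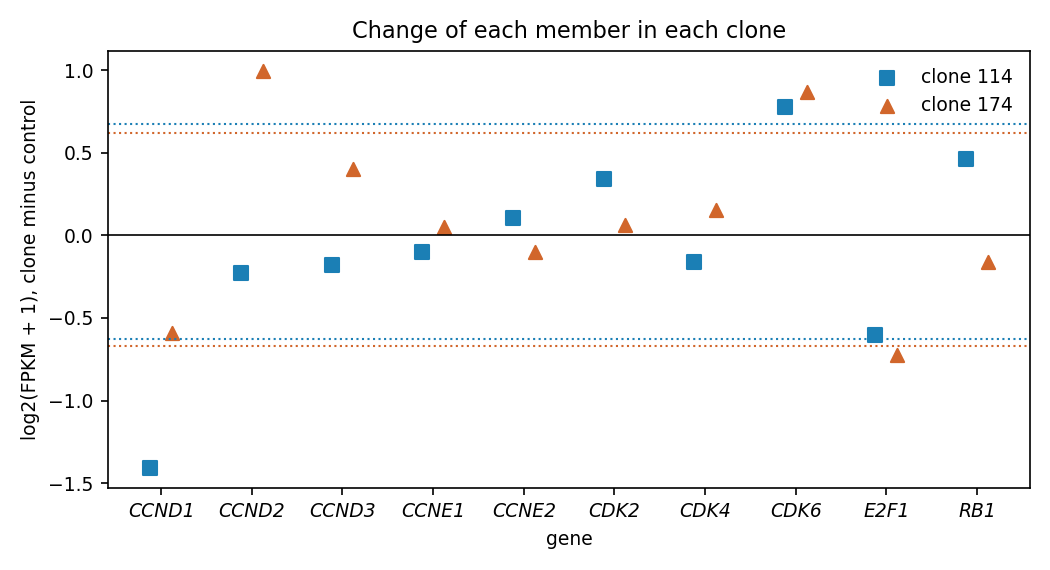
Difference in log2(FPKM + 1) between each clone and the control for each member, with squares for clone 114 and triangles for clone 174, 1 library each. Dotted lines mark the 5th and 95th percentiles of all tested genes in the clone of that colour (-0.63 and 0.68 in clone 114, -0.67 and 0.62 in clone 174); CDK6 lies outside them in both clones, CCND1 only in clone 114, and CCND2 and E2F1 only in clone 174.

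CCND1 encodes cyclin D1, the growth-factor-responsive D cyclin. It was at 12.6 FPKM in control cells, 4.12 in clone 114 and 8.01 in clone 174. Both clones were thus below the control, but clone 174 was at 1.95 times clone 114. The log2 change was -1.41 in clone 114 and -0.59 in clone 174, with a mean of -1.00 (SE 0.42, limma adjusted p = 1.00). CCND1 was the 1 member at least 2-fold lower in clone 114, where 1.36% of tested genes were, and 0 members were at least 2-fold lower in clone 174, where 1.62% were. In clone 114, 0 members were at least 2-fold higher, against 1.79% of tested genes. By the estimated depth these levels stand for about 845, 284 and 560 fragments, so the counting error of the lowest value is near 5.93%. Counting error does not measure the spread between libraries. The 20 tested protein-coding genes nearest to CCND1 on chromosome 11 had median log2 changes of 0.057 in clone 114 and 0.070 in clone 174.

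CCND2 and CCND3, the other D cyclins, bind the same kinases. CCND2 was at 2.92 FPKM in control cells, 2.34 in clone 114 and 6.82 in clone 174. It stood out in clone 174 alone, at 2.34 times the control by FPKM, with a log2 change of 1.00 there and -0.23 in clone 114. On the log2(FPKM + 1) scale its change in clone 174 stayed just under 2-fold, a size that 1.93% of tested genes reached upward. Between the clones CCND2 was the 1 member at least 2-fold higher in clone 174 than in clone 114, where 2.22% of tested genes were (log2 difference 1.23), and 0 members were at least 2-fold lower, where 3.55% were. The mean CCND2 change over the clones was 0.38 (SE 0.52, limma adjusted p = 1.00). CCND3 was at 28.0 FPKM in control cells, 24.6 in clone 114 and 37.3 in clone 174. The clones fell on either side of the control for CCND3, with log2 changes of -0.18 and 0.40 and a mean of 0.11 (SE 0.36, limma adjusted p = 1.00). Genes near both were also higher in clone 174: the 20 nearest tested genes had a median log2 change there of 0.34 around CCND2 and 0.36 around CCND3, against -0.014 and -0.057 in clone 114. The part of these regional values in the CCND2 and CCND3 differences was not tested.

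The D cyclins therefore had a different makeup in each library. Their summed level was 43.5 FPKM in control cells, 31.1 in clone 114 and 52.1 in clone 174, so the clones lay on opposite sides of the control. CCND3 made up 64.4% of the sum in control cells, 79.2% in clone 114 and 71.5% in clone 174. The CCND1 share was 28.9% in control cells, 13.2% in clone 114 and 15.4% in clone 174, lower in both clones. CCND1 exceeded CCND2 by 4.31 times in control cells, 1.76 times in clone 114 and 1.17 times in clone 174. These shares do not depend on how libraries are scaled to each other, but they rest on 1 library each and have no test.

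CCNE1 and CCNE2 encode cyclins E1 and E2, the partners of CDK2 at the entry to S phase and targets of E2F. CCNE1 was at 21.7 FPKM in control cells, 20.2 in clone 114 and 22.5 in clone 174, and CCNE2 at 19.2, 20.7 and 17.9. For each gene the clones lay on either side of the control. The log2 change over the clones was -0.026 for CCNE1 (SE 0.33, limma adjusted p = 1.00) and 0.0013 for CCNE2 (SE 0.33, limma adjusted p = 1.00). The small CCNE1 value changed sign when FPKM were scaled to the same sum (0.12) or quantile normalized (0.015). Their summed level was 41.0 FPKM in control cells, 40.9 in clone 114 and 40.4 in clone 174. With the libraries scaled to the same sum, the clone values became 46.9 and 43.5 FPKM. E cyclins stood at 0.942 of the D cyclin sum in control cells, 1.32 in clone 114 and 0.775 in clone 174. INTS8 and NDUFAF6 overlap CCNE2 in the RefSeq gene list (GRCh38.p14), and INTS8 was at 19.5, 23.8 and 17.1 FPKM. The libraries were stranded, but the counting is not stated to use strand, so reads in the overlap are uncertain.

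**Figure D3:**
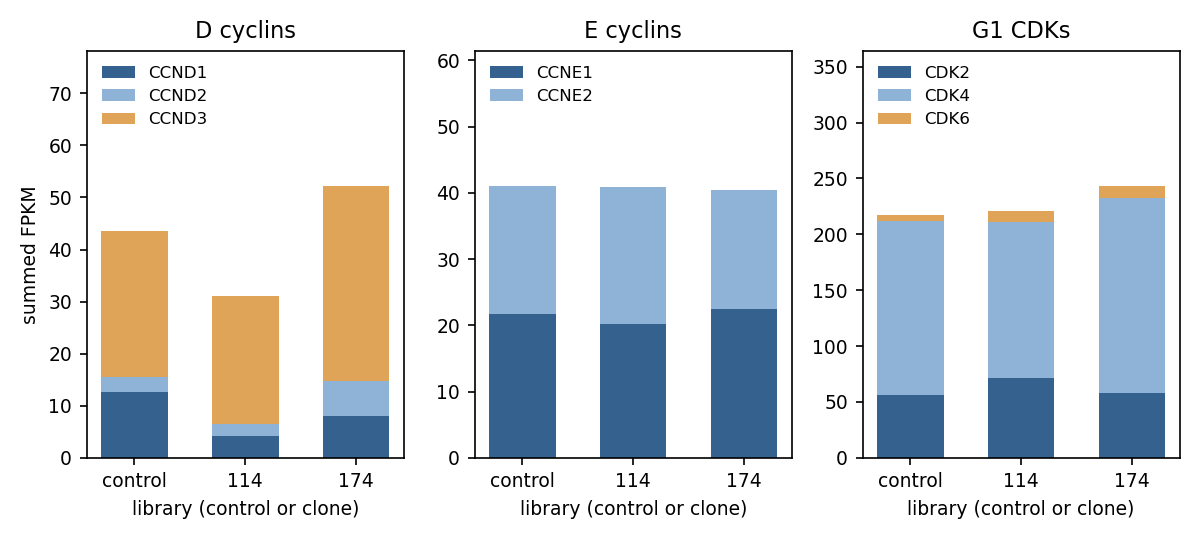
Summed FPKM of the D cyclins, E cyclins and G1 kinases in the control and in clones 114 and 174, 1 library per bar, with each gene as a segment. The D cyclin bars differ (43.5, 31.1 and 52.1 FPKM), the E cyclin bars stay between 40.4 and 41.0 FPKM, and CDK6 is a thin segment of the kinase bars.

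CDK6 and CDK4 are the kinases that D cyclins activate. CDK6 was at 5.32 FPKM in control cells, 9.81 in clone 114 and 10.5 in clone 174. The clones were close to each other and 1.85 and 1.98 times the control, respectively. The log2 change was 0.78 in clone 114 and 0.87 in clone 174, with a mean of 0.82 (SE 0.35, limma adjusted p = 1.00). Of all tested genes, 1.73% had a higher mean change. Chromosome 7, which carries CDK6, had 601 tested genes, whose median lay at 0.38 in clone 114 and at -0.23 in clone 174 (log2). The 20 tested genes nearest to CDK6 had medians of 0.53 and -0.22. Clone 114 thus had a raised CDK6 among raised neighbours, whereas in clone 174 CDK6 was high among neighbours that were on the whole lower than in the control. With each chromosome's median subtracted, the mean CDK6 change was 0.75. That subtraction lowers the CDK6 value of clone 114 and raises that of clone 174. The clones then lie further apart than in the unadjusted values. Its annotated coding transcripts of at least 1000 bases run from 1465 to 11612 bases, so the fragments behind the control value were between about 110 and 992 by the estimated depth.

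CDK4 was at 156 FPKM in control cells, 140 in clone 114 and 174 in clone 174. The clones lay on either side of the control, with a mean log2 change of -0.0030 (SE 0.34, limma adjusted p = 1.00) that became 0.15 after scaling to the same sum and 0.18 after quantile normalization. TSPAN31, which overlaps CDK4 in the RefSeq list, was at 18.9, 21.4 and 25.5 FPKM. CDK4 exceeded CDK6 by 29.4 times in control cells, 14.2 times in clone 114 and 16.5 times in clone 174. CDK6 accordingly made up 3.29% of the 2 genes' sum in control cells, 6.57% in clone 114 and 5.71% in clone 174. CDK2, the partner of cyclins E and A, was at 55.9 FPKM in control cells, 71.1 in clone 114 and 58.4 in clone 174. Both clones were above the control, clone 174 barely so, with log2 changes of 0.34 and 0.064 and a mean of 0.20 (SE 0.33, limma adjusted p = 1.00). CDK2, CDK4 and CCND2 lie on chromosome 12, whose median log2 change was 0.031 in clone 114 and 0.21 in clone 174.

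E2F1 encodes an activating E2F factor that RB holds in check and that binds its own promoter. It was at 58.7 FPKM in control cells, 38.3 in clone 114 and 35.1 in clone 174. Both clones were lower, at 0.653 and 0.597 of the control, and differed little from each other. The log2 change was -0.60 in clone 114 and -0.73 in clone 174, with a mean of -0.66 (SE 0.32, limma adjusted p = 1.00). Of all tested genes, 2.50% had a lower mean change. After scaling to the same sum the mean was -0.52. By the estimated depth the values stand for about 2209, 1482 and 1375 fragments, with a counting error near 2.70% at the lowest. The 345 tested genes of chromosome 20 gave medians of -0.0035 and -0.0083 in clones 114 and 174. Around E2F1 the 20 nearest tested genes had medians of -0.0031 and -0.17, with 10 lower and 3 higher in both clones.

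Promoter letters are shown for E2F1, which was lower in both clones, for E2F2, whose changes were nearest to those of E2F1 among 145 other tested genes from lists of the cell cycle circuit and its regulators, and for RBL1, which shares the capital letters but was higher in both. RefSeq windows (GRCh38.p14) were available for 6 of the 10 members, not for CCND1, CCND2, CCNE2 and CDK2. In the 250 bases before each listed start, E2F-like words were searched on both strands: the word TTTCCCG, the word TTTCGCG, the word TTTGCCG and the word TTTGGCG. Each line below reads 5′ to 3′ on the gene's strand, with the matches in capitals, and ends at the listed start. All 3 genes lie on the minus strand, E2F1 at chr20:33686386-33686635, E2F2 at chr1:23531234-23531483 and RBL1 at chr20:37095998-37096247.
E2F1: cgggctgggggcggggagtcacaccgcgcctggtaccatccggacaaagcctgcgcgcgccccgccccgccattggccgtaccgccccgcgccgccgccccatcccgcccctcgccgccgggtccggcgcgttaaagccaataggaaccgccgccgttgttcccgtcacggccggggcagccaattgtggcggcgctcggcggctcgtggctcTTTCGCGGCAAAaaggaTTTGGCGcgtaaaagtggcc
E2F2: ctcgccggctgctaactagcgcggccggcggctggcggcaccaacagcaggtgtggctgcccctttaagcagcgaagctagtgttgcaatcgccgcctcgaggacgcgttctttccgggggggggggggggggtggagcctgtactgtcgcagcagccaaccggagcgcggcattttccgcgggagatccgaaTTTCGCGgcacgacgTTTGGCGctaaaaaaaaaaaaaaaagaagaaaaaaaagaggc
RBL1: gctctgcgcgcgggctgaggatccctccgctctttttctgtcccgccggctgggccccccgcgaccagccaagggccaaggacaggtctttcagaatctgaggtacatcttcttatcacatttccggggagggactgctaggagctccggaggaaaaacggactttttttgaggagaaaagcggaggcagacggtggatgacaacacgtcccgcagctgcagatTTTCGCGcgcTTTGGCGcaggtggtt

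The E2F1 window held 3 matches, of which TTTCGCG and a reverse-strand TTTGCCG overlap to form the first capital run, and TTTGGCG began 20 bases before the start. E2F2 and RBL1 held the same pair, first TTTCGCG and further on TTTGGCG, beginning 57 and 42 bases before the start in E2F2 and 26 and 16 bases before it in RBL1. At least 1 of the words was found in 7.33% of 35116 RefSeq windows of that length, and in 10.5% of the windows of genes that passed the level filter. The word TTTCGCG together with the word TTTGGCG, a pair picked after seeing the E2F1 window, were found on the gene strand of 7 windows, those of E2F1, E2F2, RBL1, the DNA polymerase alpha subunit gene POLA2 and 3 other genes. The genes with that pair did not move one way: RBL1 was at 12.7 FPKM in control cells, 15.5 in clone 114 and 14.4 in clone 174, and POLA2 at 35.6, 34.9 and 39.6. The windows of CCND3, CCNE1, CDK4 and CDK6 held 0 of these words, which says only that the letters are not in these 250 bases. The 1 window listed for RB1 lies inside the gene and was not used.

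RB1 was at 28.1 FPKM in control cells, 39.2 in clone 114 and 25.1 in clone 174. The clones lay on either side of the control, with log2 changes of 0.46 and -0.16 and a mean of 0.15 (SE 0.37, limma adjusted p = 1.00). E2F1 was at 2.09 times RB1 in control cells, 0.978 times in clone 114 and 1.40 times in clone 174. LPAR6, which lies within RB1, was below 1 FPKM in every library. Genes around RB1 on chromosome 13 were centred on log2 changes of 0.11 in clone 114 and -0.26 in clone 174 (medians). RBL2, which encodes the pocket protein p130, was at 24.2 FPKM in control cells, 39.4 in clone 114 and 29.0 in clone 174. The 3 pocket protein genes RB1, RBL1 and RBL2 summed to 65.0 FPKM in control cells, 94.1 in clone 114 and 68.5 in clone 174.

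Other genes of the circuit were read from lists. Of 11 genes of the remaining pocket proteins, E2F factors and their DP partners, 0 passed the limma test, beside 0.0795% of all tested genes. In both clones 4 were higher, or 36.4% beside 26.1% of all tested genes, and 2 lower, or 18.2% beside 31.8%. The median log2 change was 0.11 beside -0.020 for all tested genes, and 0.25 beside 0.11 after scaling to the same sum. E2F2, another activating factor, was at 11.9 FPKM in control cells, 7.91 in clone 114 and 6.89 in clone 174. E2F7, a repressor of E2F targets, was at 14.4, 21.0 and 20.7, on the opposite side of the control. Over the sum of E2F1 to E2F8, which was 174 FPKM in control cells, 180 in clone 114 and 159 in clone 174, the E2F1 share was 33.7%, 21.3% and 22.1%. In the control E2F1 had the highest level of the 8 E2F genes. In both clones it was E2F4, which acts mainly in repression.

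CDK inhibitor genes, 7 in the list, gave 0 calls, beside 0.0795% of all tested genes. Both clones lay above the control for 2, or 28.6% beside 26.1% of all tested genes, and below it for 0, beside 31.8%. The other 5 went opposite ways. The median of the mean log2 changes was -0.23 beside -0.020 for all tested genes, and -0.081 beside 0.11 after scaling to the same sum. Within single clones the median was 0.036 in clone 114 and 0.10 in clone 174, so neither clone had a lower median. CDKN1A, which encodes p21 and is induced by p53, was at 71.0 FPKM in control cells, 110 in clone 114 and 93.9 in clone 174. CDKN2A, which encodes the CDK4 and CDK6 inhibitor p16 and also ARF, was at 163 FPKM in control cells, 201 in clone 114 and 76.6 in clone 174. In the control and clone 114 it exceeded CDK4, and in clone 174 CDK4 was at 2.27 times CDKN2A. Its neighbour CDKN2B, the gene of p15, was at 9.33, 13.5 and 4.12 FPKM, in the same order of libraries. CDKN1B, the gene of p27, was at 30.9, 20.5 and 33.2, and CDKN2C, the gene of p18, at 70.0, 71.8 and 49.3.

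Among 37 E2F target genes of S phase, 0 passed, beside 0.0795% of all tested genes. In both clones 14 were lower, or 37.8% beside 31.8% of all tested genes, and 5 were higher, or 13.5% beside 26.1%. The median log2 change of the list was -0.094 beside -0.020 for all tested genes, and 0.054 beside 0.11 after scaling to the same sum. TK1, the thymidine kinase gene, was at 102 FPKM in control cells, 64.7 in clone 114 and 54.0 in clone 174. CDC45, a subunit gene of the replicative helicase, was at 69.0, 42.9 and 46.0, TYMS, the thymidylate synthase gene, at 388, 282 and 303, and POLA1, the DNA polymerase alpha catalytic subunit gene, at 31.3, 23.3 and 23.8. All 4 were lower in both clones, but they were named for the size of a shared change. PCNA, from the same list, was at 316, 301 and 237.

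Of 14 genes of G2 and M phase, 0 passed, beside 0.0795% of all tested genes. Both clones were below the control for 7, or 50.0% beside 31.8% of all tested genes, and above it for 1, or 7.14% beside 26.1%. The median log2 change was -0.12 beside -0.020 for all tested genes, and 0.026 beside 0.11 after scaling to the same sum. CCNB1, which encodes the mitotic cyclin B1, was at 207 FPKM in control cells, 145 in clone 114 and 180 in clone 174, and CCNA2, the S and G2 cyclin A2 gene, at 61.4, 47.3 and 52.3. CDC25C, a phosphatase gene of mitotic entry, was at 29.2, 18.8 and 21.1, and CDC20, an activator gene of the anaphase-promoting complex, at 214, 160 and 148. These 4 genes were named for the size of a shared change, and 6 of the 14 went opposite ways. Of 8 MuvB, MYB and FOXM1 genes, whose products regulate cell cycle genes, 0 passed, beside 0.0795% of all tested genes. Both clones were below the control for 4, or 50.0% beside 31.8% of all tested genes, and above it for 1, or 12.5% beside 26.1%. The median log2 change was -0.15 beside -0.020 for all tested genes, and -0.034 beside 0.11 after scaling to the same sum. MYBL2, itself an E2F target, was at 244, 213 and 157 FPKM, and RBBP4, a histone-binding subunit gene, at 65.1, 50.7 and 54.9. LIN37 was at 9.45, 8.24 and 6.74, and LIN54 at 5.81, 4.66 and 4.93. LIN9 was the gene above the control in both clones, at 11.6, 12.8 and 16.6, and FOXM1, at 59.6, 58.2 and 78.3, went opposite ways.

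Of 19 genes that activate G1 kinases or turn over their cyclins and inhibitors, 0 passed, beside 0.0795% of all tested genes. Both clones were above the control for 3, or 15.8% beside 26.1% of all tested genes, and below it for 5, or 26.3% beside 31.8%. The median log2 change was 0.016 beside -0.020 for all tested genes, and 0.14 beside 0.11 after scaling to the same sum. SKP2, the F-box gene whose product targets p27, was at 78.6 FPKM in control cells, 40.6 in clone 114 and 61.4 in clone 174. AMBRA1, whose product directs degradation of D cyclins, was at 10.6, 11.7 and 13.6. SKP1, the adaptor gene of the same ligase as SKP2, was at 209, 139 and 172, and the chaperone gene HSP90AB1 at 641, 548 and 788.

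Of 21 tested transcription factor genes that act upstream of CCND1, 1 passed, beside 0.0795% of all tested genes. It was FOS, an AP-1 gene of the immediate early response. Control cells had 30.1 FPKM of FOS, which fell to 4.25 in clone 114 and to 3.39 in clone 174 (log2 change -2.70, limma adjusted p = 0.0336). The FOS call held in 1 of 7 alternative settings, over which its limma adjusted p ran from 0.00201 to 1.00. EGR1 was at 90.6, 13.6 and 4.33 FPKM without passing (limma adjusted p = 0.0879). FOSL1, another AP-1 gene, was at 2.22, 5.53 and 4.28 FPKM, higher in both clones, and STAT3 at 23.5, 27.7 and 32.0. Over this list both clones were above the control for 6 genes, or 28.6%, and below it for 8, or 38.1%, near the 26.1% and 31.8% of all tested genes. The median of the mean log2 changes was -0.23 beside -0.020 for all tested genes, and -0.084 beside 0.11 after scaling to the same sum. Within single clones the median was 0.026 in clone 114 and -0.20 in clone 174, so it was not lower in clone 114. Whether these genes had a part in the CCND1 levels was not tested.

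For 3 members the nearest genes were looked up among the 145 other tested genes of these lists, by the distance between pairs of log2 changes in clones 114 and 174, over 3 libraries. Nearest to CCND1 was MYC, at 17.2 FPKM in control cells, 7.11 in clone 114 and 13.1 in clone 174 (distance 0.33), followed by SKP2 and CDC45. Nearest to E2F1 was E2F2 (distance 0.065), followed by CDC45 and TK1. Nearest to CDK6 was CCNA1, a cyclin A gene best known from the germ line, at 1.18, 2.22 and 2.53 FPKM (distance 0.27), followed by FOSL1 and CDK18. Many genes lay as near: 28 of all tested genes were within the CCND1 to MYC distance, 16 within that of E2F1 to E2F2 and 79 within that of CDK6 to CCNA1. With 3 libraries, 1 of them shared by both axes, such closeness is only a description.

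**Figure D4:**
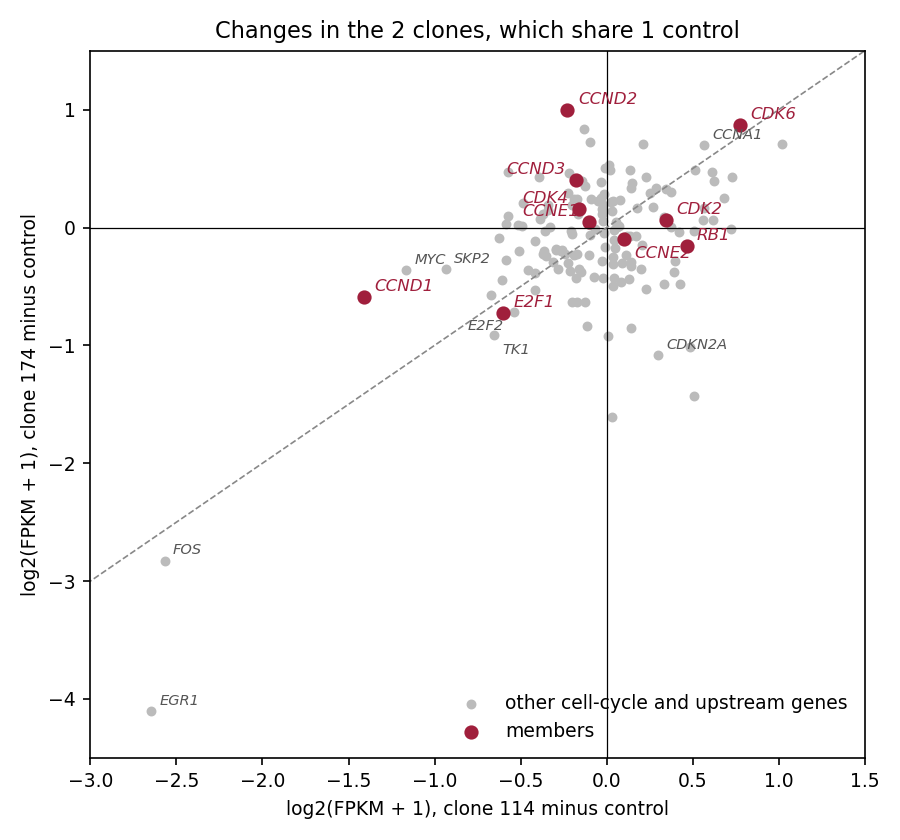
Difference in log2(FPKM + 1) from the control in clone 114 (horizontal) and clone 174 (vertical) for the members (red) and the 145 other genes of the lists (grey), 1 point per gene, with equal change on the dashed line. CDK6 and E2F1 lie near the dashed line, CCND1 lies left of the main group beside MYC and SKP2, and CCND2 lies high on the vertical axis only.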

How the data were processed

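Per the submitters' processing notes, cutadapt 2.10, HISAT2 2.2.1 and Cuffdiff 2.2.1 were used with the build hg19; neither their settings nor the gene models are stated. The authors deposited FPKM, in 1 table per library, and for each clone a table of log2 ratios to the control without a pseudocount. Of 9296 ratios per table, 9286 equalled those of the FPKM within 1e-09; 9 members are listed there, and the ratios were not used further. Rows carrying a date in place of a symbol (28) were left out.

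Log2(FPKM + 1) values of the 12577 genes whose mean reached 1 FPKM were tested with limma 3.58.1 under R 4.3.3 (eBayes with a trend, two-sided, Benjamini-Hochberg over all tested genes, threshold 0.05). The step was also run on simulated data with the same noise in every gene and library. That run could not show whether the real control varies like a clone. The pseudocount understates changes of low genes. The prior had 8.80 degrees of freedom and the residual 1. The residual is the difference between the clones, and the control's spread was taken to equal that of the clones. The p-values therefore rest mostly on the spread over all tested genes, less on that of the single gene, and on these libraries only. Single clones were compared by a 2-fold difference, with no test.

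Depth came from transcripts of at least 1500 bases of GENCODE release 29, assuming fragments of 200 bases; lengths in the authors' annotation may differ, and counting errors cover counting only. Genes named from each list were up to 4 with the largest shared change beyond the clone difference, filled by level; CDKN2B, PCNA, E2F4, POLA2, LIN9 and FOXM1 were named after their values were seen. The members and lists were chosen with earlier results of these data known. Chromosomes and neighbours came from RefSeq.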

Additional observations from a re-analysis of the deposited data

How the results depend on the processing

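Over 7 alternative settings 0 members were called, and the lowest adjusted p of a member stayed at 1.00. The number of all genes called was 10 as reported, 15 with a mean of at least 5 FPKM, 9 without a trend, 3 with a pseudocount of 0.1 FPKM, 0 with no filter on low values, 6 after quantile normalization, 6 with FPKM scaled to the same sum and 6 with each chromosome's median subtracted. CCND1 ranged from -1.12 to -0.87, E2F1 from -0.68 to -0.52 and CDK6 from 0.75 to 0.95 (log2 changes), each keeping its direction. CCNE1 turned to 0.015 with quantile normalization and 0.12 with the same sum, and CDK4 to 0.18 and 0.15. The members' median moved from 0.056 to 0.20 with the same sum, as that scaling raises every clone value. CCND2, below a mean of 5 FPKM, has no value at that filter.

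Leaving out 1 clone leaves no test. The values then ranged from -0.23 to 1.00 for CCND2, -0.18 to 0.40 for CCND3, -0.10 to 0.048 for CCNE1, -0.10 to 0.10 for CCNE2, -0.16 to 0.15 for CDK4, -0.16 to 0.46 for RB1 and -0.13 to 0.056 for the members' median. The control could not be left out. No paired analysis was possible because there is 1 control library, so the groups share fewer than 2 replicate numbers.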

Other observations

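Many of the other cyclin and CDK genes act outside the G1 step, for example in transcription. Of 14 other cyclin genes tested, 0 passed the limma test, beside 0.0795% of all tested genes. Both clones were above the control for 4, or 28.6%, and below it for 5, or 35.7%, near the 26.1% and 31.8% of all tested genes. The median log2 change was -0.099 beside -0.020 for all tested genes, and 0.040 beside 0.11 after scaling to the same sum. Within single clones the median was 0.044 in clone 114 and -0.20 in clone 174. CCNI was at 94.4 FPKM in control cells, 81.5 in clone 114 and 73.0 in clone 174, CCNF, the gene of an F-box cyclin that acts on the centriolar protein CP110, at 26.7, 23.6 and 22.7, and CCNC, a Mediator kinase cyclin gene, at 69.8, 64.9 and 59.2. Of 15 other CDK genes tested, 0 passed, beside 0.0795% of all tested genes. In both clones 7 were higher, or 46.7% beside 26.1% of all tested genes, and 2 were lower, or 13.3% beside 31.8%. The median log2 change was 0.19 beside -0.020 for all tested genes, and 0.33 beside 0.11 after scaling to the same sum. CDK10 was at 8.47, 14.7 and 11.7 FPKM, CDK18 at 2.91, 4.98 and 4.42, CDK20 at 5.01, 6.33 and 6.57 and CDK3 at 2.17, 3.12 and 2.91. The cyclin and CDK genes given here were named for the size of a shared change, and 6 of the 15 CDK genes went opposite ways.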
